A study of Danio rerio with 2 samples.

Results

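The cytosolic ribosomal protein genes of the adult zebrafish pituitary were taken as all gene symbols that begin with rps or rpl followed by a digit or by p, without the rps6k genes, which encode kinases. The rule used symbols only and gave 82 genes of the 25432 counted, 34 of the small subunit (rps) and 48 of the large subunit (rpl), and left out 11 rps6k symbols. All 82 had a unique molecular identifier (UMI, 1 tagged mRNA molecule) in both libraries. The libraries came from gnrh3-/- females, which lack the hypophysiotropic Gnrh3 peptide in the whole animal, and from their WT sisters. All fish were 3 months old, had been chosen as sexually mature, and gave 5 pituitaries per genotype, which were pooled, dissociated with enzymes and sequenced from the 3' end of each mRNA as a single library. The animals of a pool cannot be separated, and with 1 library per genotype no difference between genotypes has a replicate check. Intervals below are 95% and cover counting error only.

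Each cytosolic ribosome joins a small subunit, which decodes the mRNA, to a large subunit, which forms the peptide bond, and nearly every ribosomal protein is present in a single copy per ribosome. In vertebrates the mRNAs begin with a pyrimidine tract, through which nutrient signals set their translation together. Pituitary endocrine cells are known for devoting a large part of their mRNA to a single hormone, so the share left to ribosomal protein mRNAs depends on what is counted in the total.

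The cells were those of 13 types named by the authors, 4456 cells in the gnrh3-/- library and 1955 in the WT library, and 1 cell barcode occurred in both. The gene gnrh3 gave 1 UMI in the gnrh3-/- cells and 1 in the WT cells, so it does not check the genotype labels. In each type the gene that names it ranked first among the types in both libraries, apart from gh1, which ranked second in somatotropes beta behind somatotropes alpha, and pomca, which ranked second in corticotropes behind melanotropes. The median gnrh3-/- cell held 0.499 to 0.737 times the UMIs of the median WT cell of the same type. Empty droplets, barcodes with 10 to 100 UMIs, held more ribosomal protein and more hormone RNA in the gnrh3-/- library. Their ribosomal protein level was 2247 per 10000 UMIs in gnrh3-/- and 1675 in WT, and hormone genes took 20.2% of their UMIs in gnrh3-/- and 14.7% in WT. The part of this difference in the results below was not tested beyond the subtraction of free RNA given with the alternatives.

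The 82 genes together held 8181401 of 31924001 UMIs in the gnrh3-/- cells and 4918766 of 20698732 in the WT cells. Their summed level, the UMIs of all 82 per 10000 UMIs of all genes, was highest in FSH gonadotropes, with 3539 (3535 to 3542) in gnrh3-/- and 3489 (3484 to 3494) in WT. LH gonadotropes followed with 3304 in gnrh3-/- and 3193 in WT, and somatolactotropes alpha with 3084 in gnrh3-/- and 3010 in WT. The undetermined type, marked by the leukocyte gene fcer1gl, had 2934 in gnrh3-/- and 2791 in WT, isl1+ cells 2607 in gnrh3-/- and 2614 in WT, and her6+ cells 2429 in gnrh3-/- and 2203 in WT. These 6 types made the upper part of the order in both libraries.

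Lower levels were found in the types with abundant hormone mRNA. Lactotropes had 2331 in gnrh3-/- and 2111 in WT, somatotropes beta 2274 in gnrh3-/- and 2031 in WT, thyrotropes 1894 in gnrh3-/- and 1737 in WT, and corticotropes 1798 in gnrh3-/- and 1638 in WT. At the bottom were somatotropes alpha with 1772 in gnrh3-/- and 1581 in WT, somatolactotropes beta with 1753 in gnrh3-/- and 1618 in WT, and melanotropes with 1735 in gnrh3-/- and 1612 in WT. The highest type stood 2.04-fold above the lowest in gnrh3-/- and 2.21-fold in WT. Neighbours at the bottom differed by less than the difference between the libraries, and the last 3 types stood in another order in gnrh3-/- than in WT.

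**Figure D1:**
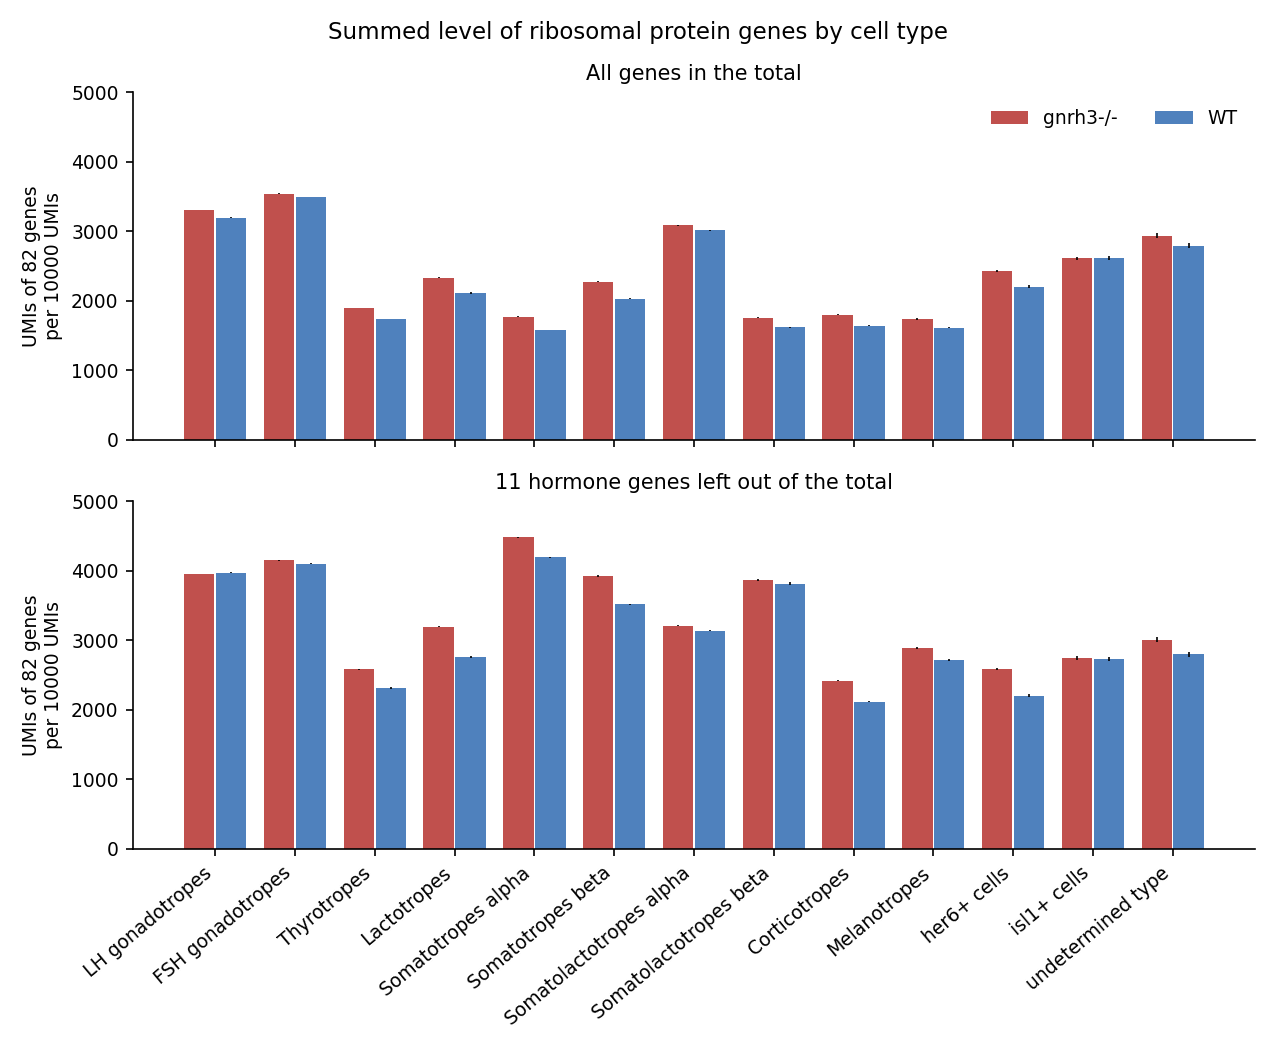
Summed level of the 82 ribosomal protein genes (UMIs per 10000 UMIs, vertical axis) in the 13 cell types, gnrh3-/- left of WT, with all genes in the total (upper panel) and with the 11 hormone genes left out of it (lower panel). Thin lines are exact binomial 95% intervals. Somatotropes alpha had 1772 in gnrh3-/- and 1581 in WT in the upper panel, and the highest bars of the lower panel, 4477 in gnrh3-/- and 4190 in WT.

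When the 11 hormone genes (growth hormone gh1, prolactin prl, somatolactins, pro-opiomelanocortins and the gonadotropin and thyrotropin subunits) were left out of the total, the order of the types changed. Somatotropes alpha, in which hormone genes took 60.4% of the UMIs in gnrh3-/- and 62.3% in WT, then had the highest level of all types, 4477 in gnrh3-/- and 4190 in WT. They had ranked 11th of 13 in gnrh3-/- and last in WT. Somatolactotropes beta, with 54.7% hormone UMIs in gnrh3-/- and 57.6% in WT, reached 3868 in gnrh3-/- and 3814 in WT, and somatotropes beta 3922 in gnrh3-/- and 3515 in WT. FSH gonadotropes came second with 4149 in gnrh3-/- and 4099 in WT, followed by LH gonadotropes with 3949 in gnrh3-/- and 3969 in WT.

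Other types stayed low without the hormone genes. Corticotropes were last with 2415 in gnrh3-/- and 2115 in WT, next to her6+ cells with 2580 in gnrh3-/- and 2205 in WT and thyrotropes with 2585 in gnrh3-/- and 2313 in WT. The hormone share was 25.6% in gnrh3-/- and 22.6% in WT in corticotropes and 5.86% in gnrh3-/- and 0.0896% in WT in her6+ cells, so the 3 lowest types without hormone genes were not those with the most hormone mRNA. Melanotropes, which make the same prohormone gene pomca as corticotropes, had 2892 in gnrh3-/- and 2713 in WT. The highest type was 1.85-fold above the lowest in gnrh3-/- and 1.98-fold in WT on this total.

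Within a type, single cells spread around these values. In FSH gonadotropes the median cell gave 36.4% of its UMIs to the 82 genes in gnrh3-/- (quartiles 33.2% and 39.4%) and 35.3% in WT (32.3% and 38.3%). In somatotropes alpha the median was 18.3% in gnrh3-/- (15.8% and 21.2%) and 16.0% in WT (13.7% and 18.2%). The quartile ranges of gnrh3-/- and WT cells overlapped in all 13 types. A median FSH gonadotrope held 3064 ribosomal protein UMIs in gnrh3-/- and 5164 in WT, and a median thyrotrope 600 in gnrh3-/- and 974 in WT, so the absolute number per cell was lower in the gnrh3-/- library in both. The paper reports similar totals of raw reads for the libraries. Kept cells of all types were 4794 in gnrh3-/- and 2194 in WT, so fewer reads fell to each kept cell in gnrh3-/-. Sampling of each cell was thus shallower in the gnrh3-/- library. Whether its cells also held fewer mRNAs was not tested.

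The summed level was higher in gnrh3-/- in 12 of 13 types, by small amounts. The log2 ratio of gnrh3-/- over WT was 0.16 (0.16 to 0.17) in somatotropes alpha and 0.16 (0.16 to 0.17) in somatotropes beta. It was 0.14 in lactotropes and in her6+ cells, 0.13 in corticotropes, 0.12 in thyrotropes and in somatolactotropes beta, and 0.11 in melanotropes. The largest of these is a ratio of 1.12. In the types with the highest levels the ratio was nearer to 0, at 0.049 (0.046 to 0.052) in LH gonadotropes, 0.020 (0.017 to 0.023) in FSH gonadotropes, 0.035 in somatolactotropes alpha and 0.072 in the undetermined type. In isl1+ cells it was -0.0038 (-0.025 to 0.017). The median over the 13 types was 0.12.

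The size and in some types the sign of these ratios depended on the scaling. Without the hormone genes in the total the ratio was above 0 in 12 of 13 types with a median of 0.10, but in LH gonadotropes it was -0.0071 (-0.010 to -0.0038). It was then highest in her6+ cells, at 0.23, and in lactotropes, at 0.21. In her6+ cells hormone genes took 5.86% of the UMIs in gnrh3-/- and 0.0896% in WT, so leaving them out mainly shrank the gnrh3-/- total. Over 5% of the UMIs came from a hormone of another type in 4 of 64 her6+ cells in gnrh3-/- and 0 of 37 in WT. The part of such RNA in the value of 0.23 was not tested. With TMM scaling of edgeR, which trims extreme genes before it sets the scale, the ratios of the types moved by -0.076 to 0.26 on the log2 scale. The median over types was then 0.24, and the ratio in LH gonadotropes was again below 0, at -0.027. Among cells with 3000 to 10000 UMIs, 11 of 13 types were above 0, and somatolactotropes beta, with 75 such cells in gnrh3-/- and 5 in WT, were at -0.036. The level also differed with depth inside a library. In somatotropes alpha shallower cells had 2019 in gnrh3-/- and 1720 in WT, and deeper cells 1663 in gnrh3-/- and 1508 in WT. Deeper cells had the higher level in 7 of 13 types in gnrh3-/- and in 8 of 13 in WT. Beyond this window of UMIs, the part of depth in the ratios was not tested.

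**Figure D2:**
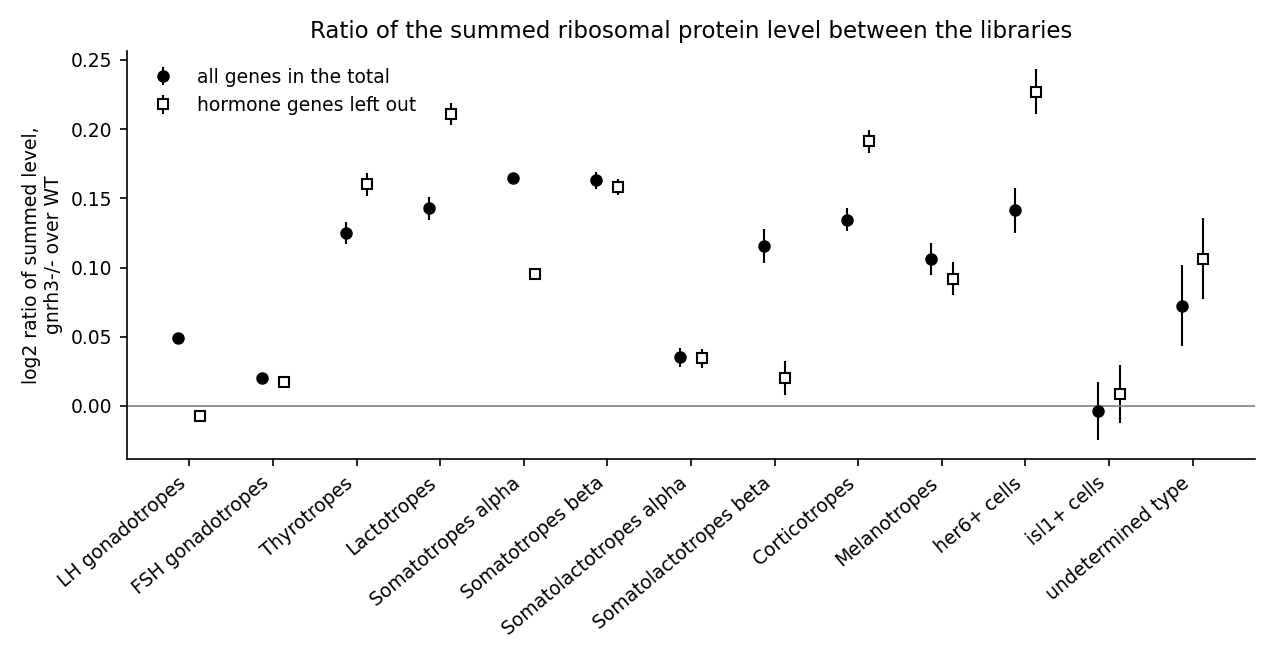
Log2 ratio of the summed ribosomal protein level, gnrh3-/- over WT (vertical axis), in the 13 cell types, with all genes in the total (filled circles) and with the hormone genes left out (open squares). Lines are 95% intervals of counting error, hidden by the symbol where they are short. Of the filled circles, 12 lie above 0, with a median of 0.12, and LH gonadotropes fall to -0.0071 once the hormone genes are left out.

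Small and large subunit genes moved alike. The sum of the 34 small subunit genes was higher in gnrh3-/- in 13 of 13 types with a median log2 ratio of 0.13, and the sum of the 48 large subunit genes in 12 of 13 with a median of 0.10. The small subunit genes took between 40.5% (her6+ cells) and 42.6% (undetermined type) of the ribosomal protein UMIs in gnrh3-/-, and between 40.2% (her6+ cells) and 42.0% (corticotropes) in WT. The proportion of the subunits thus differed little over types whose summed level differed by over 2-fold. The 4 genes of the acidic stalk, which binds the translation factors (rplp0, rplp1, rplp2 and rplp2l), took 5.52% in isl1+ cells and 7.09% in LH gonadotropes of gnrh3-/-, against 5.26% in isl1+ cells and 7.31% in LH gonadotropes of WT.

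Single genes spanned a wide range. Each mRNA is counted at its 3' end, so no length correction was made, and levels of different genes are compared as molecules captured. The highest was the stalk gene rplp1, with 60.9 UMIs per 10000 in gnrh3-/- and 56.7 in WT over all cells. It was followed by rps2 with 50.7 in gnrh3-/- and 48.6 in WT, rps14 with 52.1 in gnrh3-/- and 43.8 in WT, rpl32 with 48.3 in gnrh3-/- and 46.7 in WT, and rps19 with 50.1 in gnrh3-/- and 44.7 in WT. These are subunit proteins of the small (rps2, rps14, rps19) and large (rpl32) subunit. The top 5 held 10.2% of the ribosomal protein UMIs in gnrh3-/- and 10.1% in WT, so no single gene set the sum.

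Of the 82 genes, 75 had a mean level of 10 or more. The 7 others were rpl5b, at 9.94 in gnrh3-/- and 9.80 in WT, and 6 genes that were far lower. The lowest was rps8b, with 128 UMIs in gnrh3-/- and 75 in WT, a level of 0.0401 in gnrh3-/- and 0.0362 in WT. The second gene listed as rpl37 (ENSDARG00000076360), which a gene name table pairs with the symbol COA1, a mitochondrial assembly factor, had a level of 0.140 in gnrh3-/- and 0.148 in WT. The abundant rpl37 copy is listed as rpl37.1 and had 43.8 in gnrh3-/- and 41.2 in WT. Among the low genes, rps19bp1, known from mammals as a binding protein of Rps19 and no ribosomal protein itself, had 0.269 in gnrh3-/- and 0.251 in WT. The level of rpl7l1, which works in ribosome assembly in mammals, was 0.359 in gnrh3-/- and 0.344 in WT. The remaining low genes, rps27l and rpl26, are described with the genotype ratios.

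Of the genes that the symbol rule missed, rpsa and faua, which encode a small subunit protein and a fusion of a ubiquitin-like protein with a small subunit protein, had levels like those of the abundant ribosomal protein genes. The level of rpsa was 38.8 in gnrh3-/- and 35.6 in WT, and that of faua 26.4 in gnrh3-/- and 25.2 in WT. The second copy faub had 0.354 in gnrh3-/- and 0.337 in WT. RPL37A, written in capitals in the gene list and so also missed, had 48.1 in gnrh3-/- and 45.2 in WT.

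Over cell types the genes kept nearly the same proportions. For each gene the UMIs in a type were divided by those expected if the gene took the same share of the ribosomal protein UMIs in every type of that library. For the 75 genes at a level of 10 or more, 1832 of 1950 such values (93.9%) lay between 20% below and 25% above the expected number. Across these 75 genes the log2 values of a type in gnrh3-/- and in WT correlated with Pearson's r between 0.82 (somatolactotropes beta) and 0.97 (FSH gonadotropes), a description over genes that share libraries and depth.

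By the criterion of at least 2-fold in both libraries with 20 or more expected UMIs, only rpl22l1 broke the common pattern, and it was low in 2 types. It is a paralog of rpl22, and either protein can take the same place in the large subunit. In her6+ cells rpl22l1 had 235 UMIs in gnrh3-/- and 124 in WT, 0.38 (0.33 to 0.43) times the expected number in gnrh3-/- and 0.36 (0.30 to 0.43) times in WT. In isl1+ cells it had 145 UMIs in gnrh3-/- and 94 in WT, 0.48 (0.40 to 0.56) times the expected number in gnrh3-/- and 0.41 (0.33 to 0.50) times in WT. It was highest in somatotropes alpha, at 1.49 (1.47 to 1.51) times in gnrh3-/- and 1.42 (1.39 to 1.45) times in WT. Its paralog rpl22 was at 1.11 in gnrh3-/- and 1.17 in WT in her6+ cells and at 1.22 in gnrh3-/- and 1.20 in WT in isl1+ cells.

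The balance of the pair therefore differed between types. Of the UMIs of rpl22 and rpl22l1 together, rpl22l1 took 59.7% (59.1 to 60.3%) in somatotropes alpha of gnrh3-/- and 55.6% (54.8 to 56.4%) in those of WT. It took 55.5% in gnrh3-/- and 54.3% in WT in somatolactotropes beta, and 54.8% in gnrh3-/- and 52.3% in WT in melanotropes. In gonadotropes the share was lower, 45.7% in gnrh3-/- and 43.3% in WT in LH gonadotropes and 43.1% in gnrh3-/- and 43.0% in WT in FSH gonadotropes. The lowest shares were 24.9% (22.1 to 27.8%) in gnrh3-/- and 21.1% (17.8 to 24.6%) in WT in her6+ cells, 27.5% in gnrh3-/- and 22.8% in WT in isl1+ cells and 32.4% in gnrh3-/- and 28.2% in WT in the undetermined type. The her6+, isl1+ and undetermined types thus stood below the 10 hormone cell types in both libraries. The share was higher in gnrh3-/- in 13 of 13 types, and the intervals did not overlap in 5 of them.

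**Figure D3:**
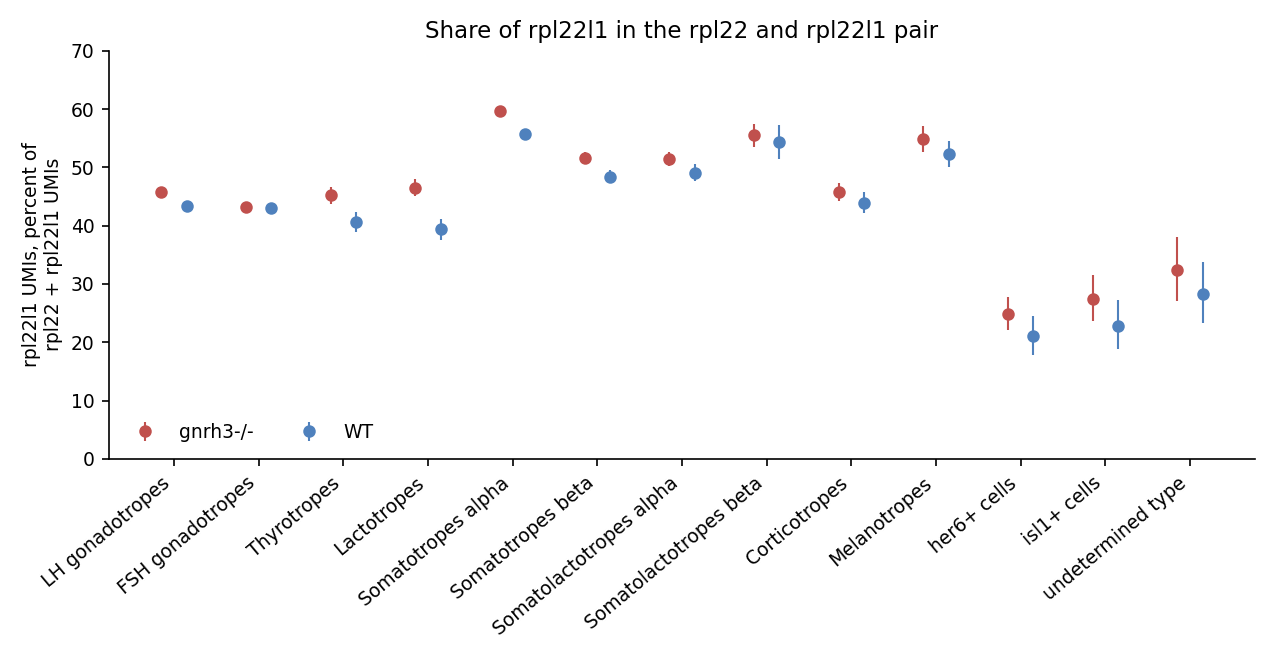
UMIs of rpl22l1 as a percent of the UMIs of rpl22 and rpl22l1 together (vertical axis) in the 13 cell types, gnrh3-/- left of WT, with exact binomial 95% intervals. The her6+ cells (24.9% in gnrh3-/- and 21.1% in WT), isl1+ cells and the undetermined type lie below the endocrine types, and somatotropes alpha (59.7% in gnrh3-/- and 55.6% in WT) at the top.

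At 1.5-fold in both libraries, 12 pairs of a gene and a type departed. The small subunit gene rps2 was low in her6+ cells, at 0.59 in gnrh3-/- and 0.63 in WT, and the stalk gene rplp0 in isl1+ cells, at 0.62 in gnrh3-/- and 0.59 in WT. FSH gonadotropes had a low value of rpl29, a small large-subunit protein, at 0.66 in gnrh3-/- and 0.65 in WT, from 11734 UMIs in gnrh3-/- and 6311 in WT. LH gonadotropes, at 0.86 in gnrh3-/- and 0.83 in WT, and the undetermined type, at 0.90 in gnrh3-/- and 0.98 in WT, were also below the expected number of rpl29. All other types were above it. The highest were isl1+ cells, at 1.40 in gnrh3-/- and 1.53 in WT, and somatotropes alpha were at 1.35 in gnrh3-/- and 1.30 in WT.

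The other departures at 1.5-fold concerned genes of low level or small types. The UMIs of rps19bp1 were at 1.63 times the expected number in gnrh3-/- and 2.35 in WT in thyrotropes. In corticotropes they were at 1.87 in gnrh3-/- and 2.22 in WT, with 49 to 55 UMIs per library in these types. The expected number follows the summed level, which was low in both types. Per 10000 UMIs of all genes, rps19bp1 had 0.324 in gnrh3-/- and 0.432 in WT in thyrotropes. Corticotropes had 0.354 in gnrh3-/- and 0.385 in WT, against 0.269 in gnrh3-/- and 0.251 in WT over all cells. Under the limit of 20 expected UMIs, rps19bp1 was at 1.87 in gnrh3-/- and 1.94 in WT in melanotropes. It was at 1.99 in gnrh3-/- and 2.90 in WT in her6+ cells, and at 2.13 in gnrh3-/- and 2.90 in WT in isl1+ cells. Lactotropes were at 1.47 in gnrh3-/- and 1.55 in WT, and somatolactotropes alpha at 1.72 in gnrh3-/- and 1.05 in WT. The remaining types were below the expected number. In somatotropes alpha the second rpl37 gene was at 0.57 in gnrh3-/- and 0.56 in WT. The UMIs of rps27l, a paralog of rps27 that responds to p53 in mammals, were at 0.67 in gnrh3-/- and 0.58 in WT in somatotropes beta. Somatotropes alpha were much the same, at 0.675 in gnrh3-/- and 0.583 in WT, and missed the limit narrowly in gnrh3-/-. In isl1+ cells rps27l was at 1.64 in gnrh3-/- and 2.04 in WT. In the undetermined type rps27.2 was at 0.51 in gnrh3-/- and 0.44 in WT. This last pair passed 2-fold in both libraries when 5% of the UMIs were subtracted as free RNA (0.49 in gnrh3-/- and 0.42 in WT) or when the cells with the highest doublet scores were left out (0.48 in gnrh3-/- and 0.44 in WT).

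Zebrafish keep several ribosomal protein genes as pairs of copies. Reads from near-identical copies can be lost or shared between them, so the split of a pair is less certain than its sum. The copies rps27.1 and rps27.2 split unevenly over types, with rps27.2 at 45.2% (42.8 to 47.5%) of their UMIs in gnrh3-/- and 42.5% (39.4 to 45.6%) in WT in her6+ cells, against 19.4% (15.4 to 24.0%) in gnrh3-/- and 17.3% (13.2 to 22.0%) in WT in the undetermined type. Over all cells it took 32.0% in gnrh3-/- and 32.1% in WT. For rpl5a and rpl5b, whose human counterpart forms a particle with the 5S rRNA, rpl5b took 49.0% (48.3 to 49.6%) in gnrh3-/- and 49.7% (48.8 to 50.6%) in WT in FSH gonadotropes, but 35.7% (35.0 to 36.5%) in gnrh3-/- and 36.6% (35.6 to 37.7%) in WT in somatotropes alpha. The intervals of gnrh3-/- and WT overlapped in every type for this pair, and in 8 of 13 types for rpl22l1 and in 8 of 13 for rps27.2.

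The rps26 and rplp2 pairs split more evenly. The rps26l copy took between 52.7% and 64.6% of the rps26 and rps26l UMIs over types in gnrh3-/- and between 51.3% and 67.0% in WT. The stalk copy rplp2l took 51.5% to 61.6% of the rplp2 and rplp2l UMIs in gnrh3-/- and 47.0% to 61.4% in WT. Other second genes were minor throughout. Of its pair, rps8b took 0.0839% in gnrh3-/- and 0.0864% in WT, and rpl7l1, beside rpl7, took 0.856% in gnrh3-/- and 0.904% in WT. The second rpl37 gene was at 0.318% in gnrh3-/- and 0.358% in WT beside rpl37.1, and rps27l at 4.96% in gnrh3-/- and 6.30% in WT beside rps27.1.

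Ratios of single genes between the libraries were taken in the 9 types with at least 50 cells in each library. A gene was ranked in a type when its UMIs in the pair of libraries came to 100 or more, with no fewer than 4 per library, and a level at least 25% higher, or at least 20% lower, was used as a limit of size, not as a test. Of 716 pairs of a ribosomal protein gene and a type, 19 were past the limit as higher in gnrh3-/- and 4 as lower. These pairs involved 9 of the 82 genes, among them rps19bp1 and rpl7l1, which were counted by symbol. The counts moved with the scaling, to 31 higher and 5 lower without the hormone genes in the total, 100 higher and 4 lower among cells with 3000 to 10000 UMIs, and 204 higher and 5 lower with TMM scaling. The share of all genes past the limit was not taken under these settings, so these counts have no background beside them.

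In LH gonadotropes, 2 of 81 ribosomal protein genes (rpl26 and rps19bp1) were past the limit as higher in gnrh3-/-, against 17.9% of all genes ranked, and 1 (rps27l) was lower, against 8.91%. FSH gonadotropes had 1 of 81 higher (rpl26), against 14.4% of all genes, and 1 lower (rps27l), against 11.3%. Both gonadotrope types thus had few ribosomal protein genes past the limit where all genes passed it often. Thyrotropes had 3 of 80 higher (rpl26, rpl7l1 and the large subunit gene rpl8), against 11.8%, and 1 lower (rps19bp1), against 22.9%. Corticotropes had 1 of 79 higher (rpl26), against 11.6%, and 1 lower (rps27l), against 22.9%. In lactotropes 3 of 78 were higher (rpl22l1, rpl26 and rplp0), against 7.19%, and 0 lower, against 32.2%.

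Somatotropes alpha had 3 of 80 higher (rpl22l1, rpl26 and rps14), against 8.99% of all genes, and 0 lower, against 21.3%. Somatotropes beta had 2 of 79 higher (rpl22l1 and rpl26), against 8.19%, and 0 lower, against 26.9%. In somatolactotropes alpha 2 of 80 were higher (rpl26 and rps19bp1), against 9.20%, and 0 lower, against 16.3%. Melanotropes had 2 of 78 higher (rpl26 and the large subunit gene rpl39), against 11.8%, and 0 lower, against 15.5%. In each of the 9 types the share of ribosomal protein genes past the limit was below that of all genes in both directions, with all genes in the total. This order did not hold under every setting. TMM scaling raised every log2 ratio of lactotropes by 0.26, which put most ribosomal protein genes, but not most genes, past the limit as higher. The depth of the genes differs between these sets, and its part was not tested.

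Below this limit the ribosomal protein genes shifted together. Their median log2 ratio was 0.16 in somatotropes beta, 0.15 in somatotropes alpha, 0.14 in lactotropes, 0.13 in thyrotropes, 0.12 in corticotropes and 0.11 in melanotropes, where the medians of all genes ranked were -0.13 in somatotropes beta, -0.072 in somatotropes alpha, -0.17 in lactotropes, -0.071 in thyrotropes, -0.070 in corticotropes and -0.026 in melanotropes. In somatotropes beta, 96.2% of the ribosomal protein genes had a ratio above 0, against 34.8% of all genes, and in lactotropes 93.6%, against 30.5%. Gonadotropes did not show this contrast. In LH gonadotropes 64.2% were above 0, against 60.6% of all genes, with medians of 0.042 and 0.068, and in FSH gonadotropes 50.6%, against 53.4%, with medians of 0.0024 and 0.022. Somatolactotropes alpha were between, with 57.5% above 0 against 42.4% of all genes. The median of the ribosomal protein genes was above that of all genes in 7 of the 9 types. These ratios share 1 pair of libraries, so the types are not independent repeats. Empty droplets also had a higher ribosomal protein level in gnrh3-/- (2247 per 10000 UMIs, against 1675 in WT), and its part in this order was not tested.

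**Figure D4:**
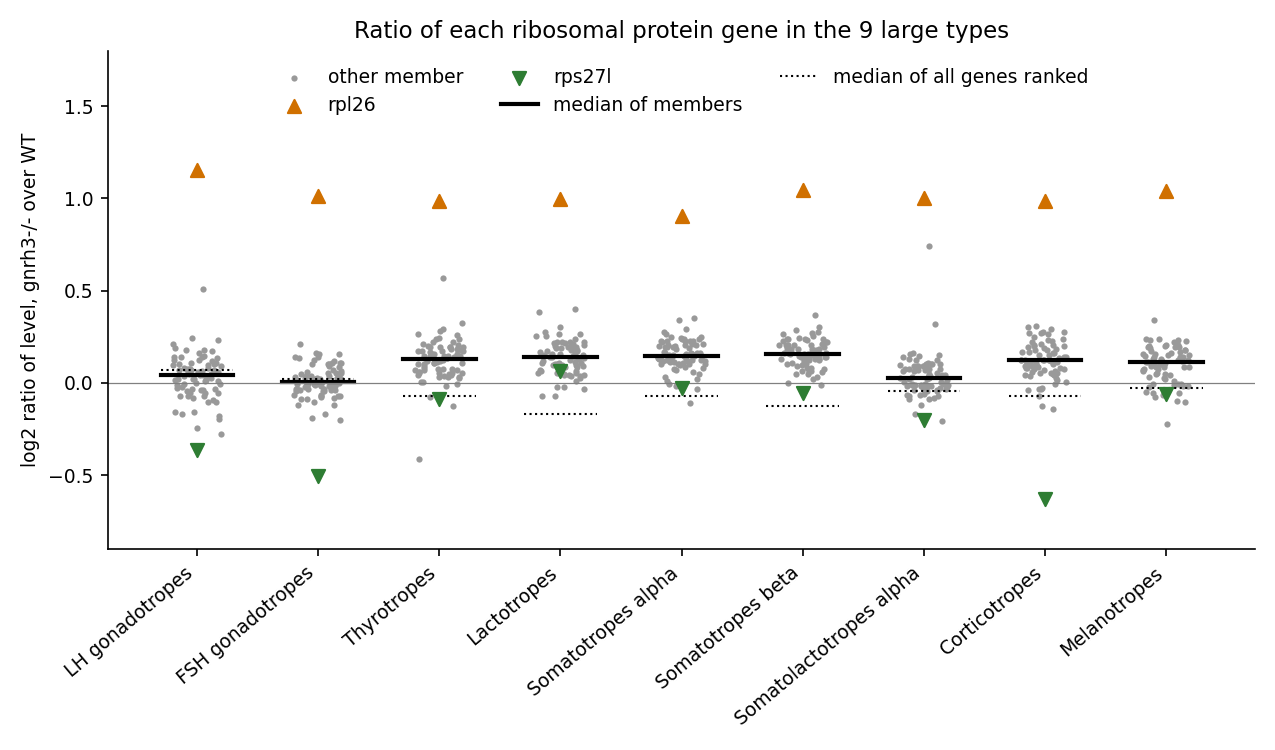
Log2 ratio of the level of each ribosomal protein gene, gnrh3-/- over WT (vertical axis), in the 9 types with at least 50 cells in each library. Grey points are single genes, triangles mark rpl26 (up) and rps27l (down), thick bars the median of the ribosomal protein genes and dotted bars the median of all genes ranked. The rpl26 triangles lie between 0.91 and 1.15 in all 9 types, above every other ribosomal protein gene.

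The gene that stood out was rpl26 (ENSDARG00000102317), which encodes a large subunit protein and, in human cells, also binds the p53 mRNA. It had 7922 UMIs in gnrh3-/- cells and 2496 in WT cells. In LH gonadotropes its level per 10000 UMIs was 2.96 (2.81 to 3.11) in gnrh3-/- and 1.33 (1.22 to 1.45) in WT. FSH gonadotropes had 3.32 (3.18 to 3.45) in gnrh3-/- and 1.65 (1.52 to 1.78) in WT. The level was thus about 2-fold higher in gnrh3-/- in both, with intervals that do not overlap. In somatolactotropes alpha it was 3.14 in gnrh3-/- and 1.57 in WT, in somatotropes beta 2.48 in gnrh3-/- and 1.21 in WT, and in lactotropes 2.30 in gnrh3-/- and 1.15 in WT. Thyrotropes had 1.86 in gnrh3-/- and 0.937 in WT, somatotropes alpha 1.81 in gnrh3-/- and 0.966 in WT, corticotropes 1.77 in gnrh3-/- and 0.896 in WT, melanotropes 1.78 in gnrh3-/- and 0.868 in WT, and somatolactotropes beta 1.75 in gnrh3-/- and 0.858 in WT.

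The difference was of like size in all endocrine types. Over the 9 large types the mean log2 ratio of rpl26 was 1.01 with an SD over types of 0.066, a 2.02-fold mean, and the lowest value was 0.91 in somatotropes alpha. In the 4 smaller types the level was also higher in gnrh3-/-, and the interval of the ratio was above 0 in 13 of 13 types. The intervals of the levels overlapped only in her6+ cells, with 2.54 (2.03 to 3.14) in gnrh3-/- and 1.53 (1.06 to 2.14) in WT. As a part of the ribosomal protein UMIs, rpl26 made up 8.95 to 10.9 per 10000 over the types in gnrh3-/- and 2.85 to 6.95 in WT. Empty droplets showed the difference too, with a level of 2.07 in gnrh3-/- and 1.01 in WT, a log2 ratio of 1.04. With 1 pool per genotype, a difference between the genotypes and one between the pools or their libraries (in the background, or in how reads at the 3' end of this gene were assigned) cannot be told apart. Of 779 genes ranked in every large type, 2 (0.257%) were past the limit as higher in gnrh3-/- in all 9, rpl26 and slirp, a mitochondrial RNA-binding protein gene whose mean log2 ratio was 0.81. Past the limit as lower in all 9 were 3 genes (0.385%), scg5, selenok and eya1, and so 0 ribosomal protein genes.

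**Figure D5:**
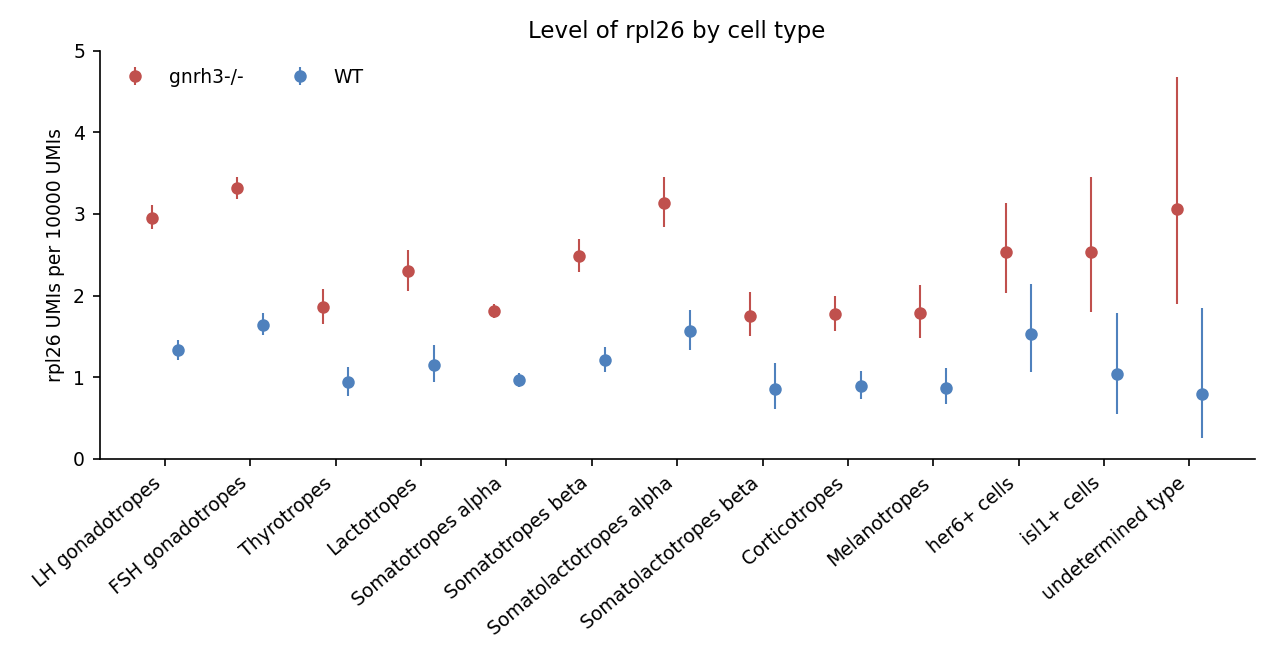
Level of rpl26 (UMIs per 10000 UMIs, vertical axis) in the 13 cell types, gnrh3-/- left of WT, with exact binomial 95% intervals. In every type the gnrh3-/- point lies above the WT point, from 1.75 to 3.32 in gnrh3-/- and from 0.794 to 1.65 in WT, and the intervals overlap only in her6+ cells.

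Among all 82 genes rpl26 was of low level. Its share of cells with at least 1 UMI was 70.7% in gnrh3-/- and 60.2% in WT, although the gnrh3-/- cells were shallower, while that of rplp1 was 99.9% in gnrh3-/- and 99.8% in WT. Of the 78 ribosomal protein genes ranked in every large type, 70 had a mean log2 ratio above 0, and the median of the 78 was 0.096. The same values over all 779 genes ranked in every large type were not taken, so this count has no background beside it. The next highest after rpl26 were rps14 at 0.23, rpl22l1 at 0.23, rps9 at 0.22 and rpl13 at 0.22.

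The level of the small subunit gene rps14 was 37.9 in gnrh3-/- and 29.7 in WT in somatotropes alpha, and 71.1 in gnrh3-/- and 63.6 in WT in FSH gonadotropes. The interval of its ratio was above 0 in 13 of 13 types, as was that of the small subunit gene rps9, with 27.6 in gnrh3-/- and 22.5 in WT in somatotropes alpha. For the large subunit gene rpl13 the interval was above 0 in 11 of 13. The ratio of rpl22l1 varied more, at 0.40 (0.29 to 0.51) in lactotropes and -0.028 (-0.068 to 0.012) in FSH gonadotropes.

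At the other end, rps27l had the lowest mean log2 ratio, -0.21. In FSH gonadotropes its level was 2.73 (2.61 to 2.85) in gnrh3-/- and 3.87 (3.67 to 4.08) in WT, a log2 ratio of -0.51 (-0.61 to -0.41). In LH gonadotropes it was 3.11 (2.96 to 3.26) in gnrh3-/- and 4.00 (3.80 to 4.21) in WT, a ratio of -0.36 (-0.47 to -0.26). Corticotropes had 1.06 (0.905 to 1.24) in gnrh3-/- and 1.64 (1.43 to 1.88) in WT, a ratio of -0.63 (-0.93 to -0.33). In these 3 types the level was lower in gnrh3-/- with intervals that do not overlap. The ratios were still lower in 2 of the small types, at -0.77 (-1.39 to -0.17) in her6+ cells, from 45 UMIs in gnrh3-/- and 51 in WT, and -0.72 (-1.29 to -0.16) in isl1+ cells, from 48 UMIs in gnrh3-/- and 64 in WT, so the interval was below 0 in 5 of 13 types. In somatolactotropes alpha the ratio was -0.20 (-0.44 to 0.039). Somatotropes alpha, in contrast, had 0.870 in gnrh3-/- and 0.886 in WT, and in lactotropes, thyrotropes, somatotropes beta and melanotropes the ratio lay between -0.090 and 0.062 with intervals that held 0. Among cells with 3000 to 10000 UMIs the ratio in LH gonadotropes turned to 0.23, with 389 such cells in gnrh3-/- and 30 in WT.

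The next lowest were the stalk gene rplp2 at -0.067, rps18 at -0.060, rpl6 at -0.038 and rpl4 at -0.012. For rplp2 the level was 15.9 in gnrh3-/- and 16.1 in WT in somatotropes alpha, 31.8 in gnrh3-/- and 33.9 in WT in FSH gonadotropes, and the interval of the ratio was below 0 in 4 of 13 types. These genes lay near or below 0 while the median over the 78 genes was above it.

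Other genes of translation were set beside them from lists chosen for their role. The ribosome-bound scaffold rack1 was above 0 in 7 of 9 types with a median of 0.097, and its level was 26.1 in gnrh3-/- and 24.7 in WT over all cells. The summed elongation factors (17 symbols) were above 0 in 6 of 9 with a median of 0.035. Their main gene eef1a1l1 had 77.3 in gnrh3-/- and 74.0 in WT over all cells. Levels over all cells also reflect the mix of types, which differed between the libraries, so these levels show abundance and not a genotype ratio. The 55 initiation factor genes had a median of 0.021, and 9 other mRNAs known from mammals to begin with a pyrimidine tract 0.016.

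The mitochondrial ribosomal proteins, which serve the separate ribosome of that organelle, were far less abundant. Their 74 genes summed to 20.7 per 10000 UMIs in gnrh3-/- and 20.1 in WT in FSH gonadotropes, and their log2 ratio was above 0 in 7 of 9 types with a median of 0.045. The 28 ribosome biogenesis genes were above 0 in 5 of 9 types, with a range of -0.15 in somatotropes beta to 0.23 in thyrotropes. The medians of these lists were lower than the 0.12 of the cytosolic ribosomal protein genes, a difference that was not tested.

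Markers of other cells were scarce in the 13 types of both libraries, apart from gfap, elavl3 and snap25a, listed for pituicytes and neurons. These 3 had 4579 UMIs in gnrh3-/- and 3104 in WT and were only summed, so they do not measure such cells. The type not reported here is in none of the marker sums, so they do not describe the whole libraries. Red cell genes had 50 UMIs in gnrh3-/- cells and 2 in WT cells, where hbaa2, hbba1 and hbba2 were at 0, endothelial genes 16 in gnrh3-/- and 8 in WT, and leukocyte genes 179 in gnrh3-/- and 232 in WT. In the undetermined type the leukocyte gene fcer1gl was at 11.5 per 10000 UMIs in gnrh3-/- and 18.4 in WT. Genes of the response to dissociation (fosab, fosb, junba, egr1 and hsp70l) were higher in gnrh3-/- in 3 of the 9 large types. Over the large types they summed to 12.8 to 89.5 per 10000 in gnrh3-/- and 18.2 to 76.9 in WT. Their part in the ratios was not tested. Of 79 pairs of a hormone gene and a large type, 58 were past the limit as higher in gnrh3-/- and 11 as lower, of which 4 were in LH gonadotropes and 4 in somatolactotropes alpha. These counts stand against the shares of all genes given by type. Cells with over 5% of their UMIs from a hormone of another type were 29 of 603 in gnrh3-/- and 2 of 232 in WT among LH gonadotropes. Without such cells 12 of 13 types again had the higher summed level in gnrh3-/-, and the mean log2 ratio of rpl26 was 1.02.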

How the data were processed

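Single-cell libraries (10x Genomics 3' kit, version 3.1) were made from 1 pool of 5 pituitaries per genotype. The authors deposited raw UMI counts of every gene in each barcode, counted with Cell Ranger 6.0.2 on GRCz11 (danRer11) with protein-coding genes of the Ensembl annotation. They also deposited a matrix of the cells they kept and the type of each, named after integration with Seurat 4. The matrix of kept cells was compared with the full matrices, and no entry (0) differed. The values of 1 of the 14 types and of some single genes are not reported here. The authors' filters on UMIs, genes and mitochondrial share were kept. Doublets were not removed.

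Counts were summed per type and library. Levels are UMIs per 10000, with exact binomial (Clopper-Pearson) 95% intervals, and log2 ratios have intervals taken from the exact binomial interval for the share of 1 count in the sum of both. Expected counts of a gene in a type came from its share of the ribosomal protein UMIs of the library, the type itself included, which draws the values of large types towards 1. No test was run, since there was 1 library per genotype. The code for ratios and pattern breaks was tried on simulated counts with counting error only and planted changes larger than the limits used. The simulation held no free RNA, doublets or differences between pools, so it does not bear on these. The genes and lists were chosen with earlier results of these data known. Genes named were the 5 highest and 5 lowest in level, those that broke the pattern, the 5 highest and 5 lowest in mean ratio, paralogs and a few related genes. Departures at 1.5-fold, slirp and the genes past the 25% limit were named after their values were seen.

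The alternatives were totals without hormone or mitochondrial genes, means of per-cell shares, subtraction of 5% of the UMIs with the profile of empty droplets, leaving out the 5% of cells with the highest Scrublet score in each library, cells with 3000 to 10000 UMIs, 1 subunit alone, leaving out the 5 most abundant genes, TMM scaling, and other limits of fold or UMIs. Leaving out cells with over 5% of a foreign hormone, and TMM scaling of the summed level, were added after seeing the data. Python 3.11.15, NumPy 2.4.6, SciPy 1.17.1, pandas 2.3.3, Scanpy 1.11.5, R 4.3.3 and edgeR 4.0.16 were used. No nucleotide or protein sequences were used here.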

Additional observations from a re-analysis of the deposited data

How the results depend on the processing

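The summed level was higher in gnrh3-/- in 11 to 13 of the 13 types under all 11 alternatives tried. The median log2 ratio over types, 0.12, became 0.095 without hormone genes in the total, 0.097 after the subtraction of free RNA, 0.10 with large subunit genes alone, 0.13 with small subunit genes alone, 0.13 with means of per-cell shares, 0.13 among cells with 3000 to 10000 UMIs and 0.24 with TMM scaling. The sign turned in LH gonadotropes without hormone genes (-0.0071) and with TMM scaling (-0.027), in somatolactotropes beta among cells with 3000 to 10000 UMIs (-0.036), and for rps27l in LH gonadotropes among those cells (0.23). The 19 pairs of a gene and a type at least 25% higher in gnrh3-/- became 31 without hormone genes, 100 among cells with 3000 to 10000 UMIs, 204 with TMM scaling and 10 at 1.5-fold. The 4 lower pairs became 2 without the highest Scrublet scores, 2 without cells with a foreign hormone and 1 at 1.5-fold. For these counts of higher and lower pairs, the share of all genes past the limit was not taken under the alternatives. The mean log2 ratio of rpl26, 1.01, was 1.14 among cells with 3000 to 10000 UMIs and 1.12 with TMM scaling. The 2 breaks of the pattern became 12 at 1.5-fold and 3 under each of the 4 other alternatives. Apart from these settings' own construction, the cause of these moves was not tested. No paired analysis was possible because there was 1 library per genotype, and for the same reason no library could be left out. Depth limited the her6+, isl1+ and undetermined types, with 11 to 64 cells per library, and genes such as rps8b. Somatolactotropes beta had 112 cells in gnrh3-/- but 27 in WT, which is under the limit of 50 for a large type.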
